A study of Mus musculus with 6 samples.

Results

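The 3 interferon-induced chemokine genes Cxcl9, Cxcl10 and Cxcl11 and their shared receptor gene Cxcr3 were examined in thyroid cancer cells of 2 mouse genotypes. Members were taken by gene symbol, and all 4 were found among the 35027 genes of the deposited expression table. These genes were chosen with the difference between the genotypes already known, so their differences are described here without a test. YAP mice expressed YAP S127A, a nuclear mutant of the coactivator that the Hippo pathway restrains, from a doxycycline (dox)-inducible tetO transgene. The inducer protein rtTA and the red fluorescent reporter Kate were expressed together after Cre recombination specific to the thyroid, and dox chow was given from 4 weeks of age. This start is that of the labels and the study's methods, whereas its results text gives 3 months of age. BrafYAP mice carried the same alleles and received the same chow, and in addition expressed Braf V600E, an activating kinase mutant, from the endogenous locus. About 20000 Kate-positive cells were sorted for each of the 3 YAP libraries (replicates 1, 2 and 3) and the 3 BrafYAP libraries (replicates 1, 2 and 6). In the labels a YAP library pools 3 tumors and a BrafYAP library holds 1 tumor, so pooling and genotype cannot be told apart. The study's methods instead give 1 tumor per mouse for each replicate, and the labels were followed. No library of normal thyroid or of Braf mutant tumors without YAP was analysed here. The p-values below measure the spread between these libraries alone.

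CXCR3 is a G protein-coupled receptor found mainly on activated T cells and natural killer (NK) cells, and its ligands CXCL9, CXCL10 and CXCL11 draw such cells into inflamed tissue and tumors. The ligand genes are textbook targets of interferon-γ, which acts through the receptor chains IFNGR1 and IFNGR2 and induces the transcription factor IRF1. Cxcl10 also responds to type I interferon through STAT2 and IRF9, and to NF-κB. Macrophages, endothelial cells, fibroblasts and epithelial cells can all produce the ligands.

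The 3 ligand genes lie side by side on the minus strand of mouse chromosome 5 in mm10. Cxcl9 spans chr5:92321347-92328079, Cxcl10 spans chr5:92346638-92348889 and Cxcl11 spans chr5:92359544-92365485. Cxcl11 is annotated as a polymorphic pseudogene, so its reads are reported as RNA only. Cxcr3 lies on the minus strand of chromosome X, at chrX:101731535-101734269. RefSeq start regions (build GRCm38.p6) were found for 3 of the 4 members, all but Cxcl11. The 250 bases before the start of Cxcl10 (chr5:92348890-92349139, minus strand) and of Cxcl9 (chr5:92328080-92328329, minus strand) are printed because the RNA of both genes was lower in BrafYAP tumors while the letters that matched differed. Capitals mark matches to 5 motifs searched on both strands, namely the interferon-stimulated response element core, the GAS element (TTCNNNGAA), the NF-κB consensus, the AP-1 site (TGANTCA) and the core bound by TEAD factors, the DNA-binding partners of YAP (GGAATG).
Cxcl10: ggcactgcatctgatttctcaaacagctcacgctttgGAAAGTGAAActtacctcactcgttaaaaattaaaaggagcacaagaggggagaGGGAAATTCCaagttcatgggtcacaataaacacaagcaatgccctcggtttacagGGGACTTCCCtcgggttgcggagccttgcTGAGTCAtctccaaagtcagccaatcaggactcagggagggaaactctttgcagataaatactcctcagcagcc
Cxcl9: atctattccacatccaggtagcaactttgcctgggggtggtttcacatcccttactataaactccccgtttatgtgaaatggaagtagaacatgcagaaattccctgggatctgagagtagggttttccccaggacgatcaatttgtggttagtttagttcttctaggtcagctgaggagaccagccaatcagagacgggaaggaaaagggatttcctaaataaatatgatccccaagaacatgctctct

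In the Cxcl10 window the interferon-stimulated response element core was matched at positions -213 to -204 from the start. The NF-κB consensus was matched at -159 to -150 and at -103 to -94, and an AP-1 site at -74 to -68. No capitals stand in the Cxcl9 window, and the only match around that gene was an AP-1 site at positions 32 to 38 after the start. No motif was matched for Cxcr3, and neither the GAS element nor the TEAD core was matched in any of the 3 regions, which run from 250 bases before to 50 bases after the start. Among all 32851 mouse start regions of this length, 3.44% held the response element core, 8.3% the GAS element, 4.51% the NF-κB consensus, 7.81% the AP-1 site and 14.7% the TEAD core. A match describes the letters and is not evidence of binding.

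The deposited values are relative abundances that had been divided by the genomic span of the gene, so introns counted toward its length. They were therefore also converted to estimated reads, the number of reads that a value stands for in its library, with 26.2 to 36.9 M estimated reads per library. Scaled reads keep the scaling between libraries that the deposited values have, and differ from them by the length division alone. For levels compared between genes, values were recalculated per exonic length. Replicate 6 of BrafYAP stood apart from the other libraries, with a correlation of log2 values of 0.733 to 0.879 to the other 5, against at least 0.803 among those 5. YAP 1 was also low to the BrafYAP libraries, at 0.820, 0.803 and 0.733 to BrafYAP 1, 2 and 6, but at 0.935 to YAP 3. Thyroid-restricted and endothelial RNA was highest in BrafYAP 6 for several genes. Thyroglobulin (Tg), the precursor of thyroid hormone, had 6474, 1046 and 16189 estimated reads in YAP 1 to 3 and 116, 66 and 22121 in BrafYAP 1, 2 and 6. The endothelial adhesion gene Pecam1 had 128, 76 and 48 against 40, 23 and 696 reads. Pax8, a thyroid lineage factor, had 11255, 10047 and 14234 against 11260, 9203 and 5844 reads. Epcam, an epithelial surface marker, had 526, 311 and 1192 against 1658, 1991 and 7899 reads.

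Cxcl10 was the most abundant member in all 6 libraries. It had 11380, 3685 and 5593 estimated reads in YAP 1, 2 and 3, and 233, 356 and 639 in BrafYAP 1, 2 and 6. Every YAP library was above every BrafYAP library, and the lowest YAP library was above the highest BrafYAP library by several-fold. In deposited values it was 172, 66.4 and 84.9 against 3.80, 4.12 and 8.36, or 108 ± 56.6 (SD, n = 3) against 5.43 ± 2.55 (SD, n = 3). The means of scaled reads, 7323 ± 3843 and 368 ± 173 (SD, n = 3 each), differed 19.9-fold. On the scale log2(value + 1) the difference, BrafYAP minus YAP, was -4.03 (SE 0.44), and it ranged from -4.34 to -3.63 as each library was left out in turn. With the length division undone it was -4.28 (SE 0.47) in log2(scaled reads + 1).

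Cxcl11 had 1184, 2040 and 1443 estimated reads in the YAP libraries and 22, 1 and 155 in the BrafYAP libraries. The groups did not overlap, and BrafYAP 6 was the highest of its group. Scaled reads were 1733 ± 674 in YAP and 54.3 ± 73.2 in BrafYAP tumors (SD, n = 3 each), a 31.9-fold difference of means. The difference was -3.02 (SE 0.33) in log2(value + 1) and -6.49 (SE 1.41) in log2(scaled reads + 1). It depended on the pseudocount because the low BrafYAP values are close to it.

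Cxcl9 was the least abundant ligand, with 493, 320 and 62 estimated reads in the YAP libraries and 0, 0 and 45 in the BrafYAP libraries. The lowest YAP library, replicate 3, was only slightly above BrafYAP 6, and a count of 0 allows up to 3 reads. Scaled reads were 321 ± 229.8 in YAP and 13.3 ± 23.1 in BrafYAP tumors (SD, n = 3 each), with a 24.1-fold difference of means that rests on BrafYAP 6. The difference in log2(scaled reads + 1) was -6.09 (SE 1.57), it was -3.86 with a pseudocount of 10, and it is no bound on the fold because 2 libraries are at 0. Its deposited mean was below the minimum of 1 used for the test on deposited values.

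Cxcr3, the receptor, was barely detected. It had 6, 18 and 36 estimated reads in the YAP libraries and 0, 0 and 65 in the BrafYAP libraries. The groups overlapped, and the highest of all 6 libraries was BrafYAP 6. Mean scaled reads were 21.8 ± 15.5 and 19.2 ± 33.3 (SD, n = 3 each). The difference in log2(scaled reads + 1) was -2.25 (SE 1.70). Without BrafYAP 6 it was -4.21, against libraries that are all at 0, so no direction can be read for the receptor.

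**Figure D1:**
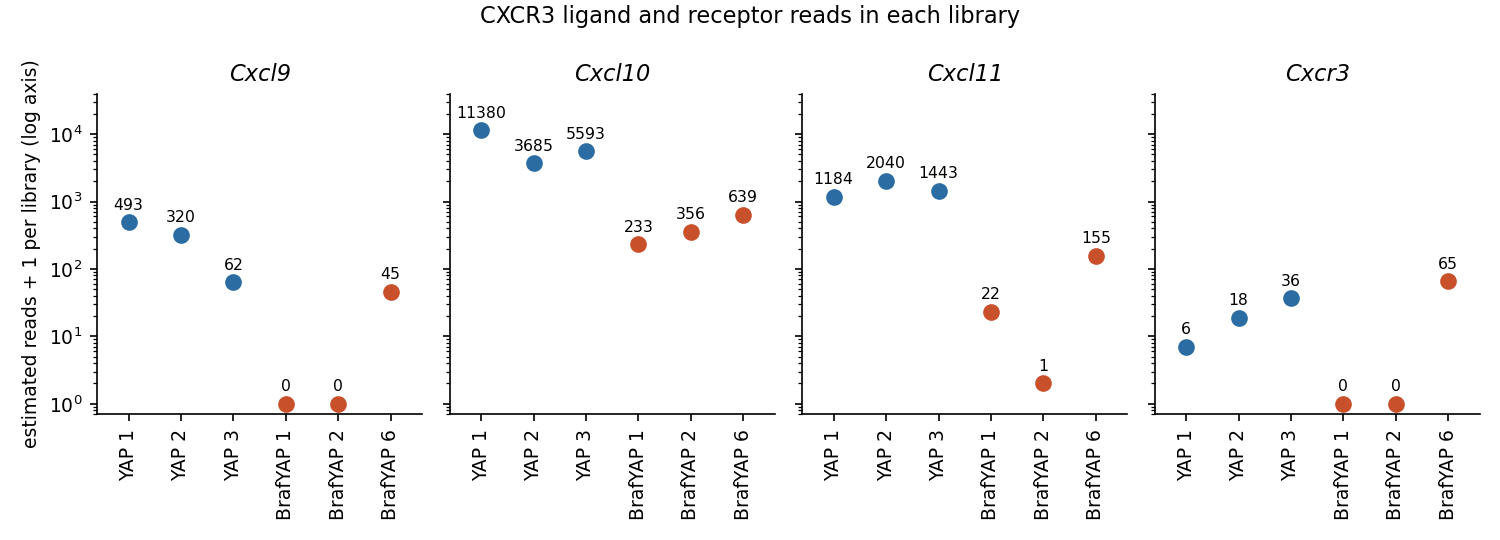
Estimated reads plus 1 (log axis) of Cxcl9, Cxcl10, Cxcl11 and Cxcr3 in each of the 3 YAP (blue) and 3 BrafYAP (orange) libraries, 1 point per library with its estimated reads printed above it. Each YAP point of the 3 ligands lies above each BrafYAP point, by 62 against 45 reads at the narrowest for Cxcl9, whereas the highest Cxcr3 point is BrafYAP 6 with 65 reads.

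Per exonic length, Cxcl10 was the highest ligand in all 6 libraries, and Cxcl11 was above Cxcl9 in 5. In BrafYAP 2 these had 1 and 0 reads, too few to order them. Cxcl10 was at 80.9, 30.2 and 42.1 in the YAP libraries and 1.85, 2.05 and 4.05 in the BrafYAP libraries. Cxcl11 was at 5.00, 9.91 and 6.44 against 0.104, 0.00342 and 0.583, and Cxcl9 at 2.62, 1.96 and 0.348 against 0, 0 and 0.213. Cxcr3, at 0.0555, 0.192 and 0.352 against 0, 0 and 0.536, was below Cxcl9 in YAP 1 and YAP 2, at nearly the same level in YAP 3, and above it in BrafYAP 6. Cxcl10 made up 87.2, 61.0 and 78.8% of the ligand reads in the YAP libraries and 91.4, 99.7 and 76.2% in the BrafYAP libraries. These shares overlapped between the groups. Within the YAP group the ligands did not rank the libraries alike, since Cxcl10 and Cxcl9 were highest in YAP 1 and Cxcl11 in YAP 2.

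Over all genes, 18 of the 7319 tested on deposited values passed an adjusted p of 0.05 (limma, Benjamini-Hochberg), 12 lower in BrafYAP (0.164% of the genes tested) and 6 higher (0.082%). Cxcl10 and Cxcl11 were among the 12, which is the contrast they were chosen on, so these calls are no test of them. Both calls were lost without YAP 1, YAP 3, BrafYAP 1 or BrafYAP 2, and after median-ratio rescaling. At an unadjusted p under 0.05, 671 of the 7319 were lower and 784 higher. After median-ratio rescaling of the libraries the adjusted calls were 1 lower and 0 higher. Of the 16832 genes tested on the estimated reads 0% passed limma's adjusted threshold, while 1775 were lower and 1629 higher at an unadjusted p under 0.05. Groups that did not overlap were seen for 2875 of these genes with BrafYAP lower (17.1%) and 1961 with BrafYAP higher (11.7%), and the 3 ligands were among the former. The median log2 difference over all genes was -0.06 on deposited values and -0.12 on scaled reads.

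The gene for interferon-γ itself was close to the limit of detection, with 3, 2 and 0 estimated reads of Ifng in the YAP libraries and 0 in each BrafYAP library. No difference can be read at that depth. The receptor chains were expressed in all libraries. Ifngr1 had 4516, 6713 and 4918 reads against 4412, 5076 and 2248, a log2 difference of -0.67 (SE 0.37, limma adjusted p = 0.352). Ifngr2 had 373, 1400 and 695 against 1494, 3212 and 2620 reads, 0.95 (SE 0.35, limma adjusted p = 0.196), with each YAP library below each BrafYAP library in reads but not after scaling. The type I receptor genes Ifnar1 and Ifnar2 differed by -0.21 (SE 0.38) and 0.60 (SE 0.35), and neither passed.

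Signal transducers and interferon regulatory factors were also set beside the ligands. Irf7, which amplifies type I interferon, had 5813, 5515 and 3904 against 668, 443 and 1272 reads, a difference of -2.82 (SE 0.41, limma adjusted p = 0.0511). Stat2, Irf1 and Irf9 differed by -0.88, -1.09 and -1.17, with limma adjusted p of 0.149, 0.121 and 0.127 and no overlap between groups. Socs3, a feedback inhibitor of cytokine receptors, had 812, 4456 and 1094 against 6295, 14346 and 12395 reads, a difference of 2.36 (SE 0.66, limma adjusted p = 0.126). Of the 17 listed interferon receptors and factors that were found, 13 were tested on deposited values, and their median difference was -0.21. None passed limma's adjusted threshold, while 5 were lower and 2 higher at an unadjusted p under 0.05 (against 671 and 784 of all 7319 genes). Of the 15 tested on scaled reads, 5 had BrafYAP below YAP with no overlap and 1 was above, against 17.1% and 11.7% of all genes, and the median was -0.24.

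Antiviral interferon-stimulated genes are effectors of the type I interferon response. On deposited values all 18 tested genes were lower in BrafYAP tumors. Of these, 4 passed limma's adjusted threshold, against 12 lower of all 7319 genes tested (0.164%). At an unadjusted p under 0.05, 17 were lower (against 671 of all 7319 genes tested), and the median difference was -1.49. Isg15, a ubiquitin-like modifier, had 3836, 1945 and 2284 reads against 244, 269 and 481 and a difference of -3.09 (SE 0.34, limma adjusted p = 0.0468). Rsad2 (viperin, an antiviral enzyme) had 1141, 718 and 760 against 84, 69 and 126 reads and a difference of -1.43 (SE 0.18, limma adjusted p = 0.0468). The BrafYAP values of Rsad2 lie below the pseudocount of 1, which shrinks this difference. On scaled reads Isg15 and Rsad2 differed by -3.27 and -3.48. Both genes were lower in each BrafYAP library than in any YAP library. Oasl1, of the oligoadenylate synthetase-like family, and Bst2 (tetherin, which retains virus particles) differed by -1.54 and -1.86 at the same limma adjusted p of 0.0468. With a pseudocount of 0.0001 they were at -3.51 and -1.93. All 4 calls are close to the threshold, and their adjusted p was as high as 0.217 when YAP 1, YAP 3, BrafYAP 1 or BrafYAP 2 was left out. Only the fit without YAP 2 kept all 4, and that without BrafYAP 6 kept Isg15 alone. Ifit3, Ifi27l2a and Ifit3b, other members of the list, differed by -2.90, -2.08 and -2.02 and did not pass. On scaled reads Ifit3 and Ifit3b were at -3.24 and -2.98. Ifit3 and Ifit3b are close copies whose reads the authors' counting could have split.

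On scaled reads 30 antiviral genes were tested, all 30 differences were below 0 (from -5.77 to -1.19), the median was -2.54, and 23 had groups that did not overlap, against 17.1% of all genes tested. Without BrafYAP 6 all 30 did not overlap, against 24.5% of all genes tested. Summed over the 31 listed genes, RPM (estimated reads scaled to a common library total) were 1941, 1439 and 1232 in the YAP libraries and 276, 204 and 595 in the BrafYAP libraries. BrafYAP 6, the BrafYAP library with the most reads of each ligand, also had the highest of these sums in its group.

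Interferon-γ-inducible GTPases and antigen-processing genes were lower in the BrafYAP libraries without a call. Igtp, which belongs to the immunity-related GTPases that act on intracellular pathogens, had 12348, 7767 and 3814 reads against 400, 306 and 871 and a difference of -3.54 (SE 0.48, limma adjusted p = 0.0511). Gbp2, a guanylate-binding protein gene, had 17109, 6964 and 4612 against 446, 1139 and 985 reads and a difference of -2.91 (SE 0.45, limma adjusted p = 0.0511). Neither gene's groups overlapped. Tgtp2 and Tgtp1, near-identical neighbours between which reads may have been split, differed by -3.52 (SE 0.76) and -2.84 (SE 0.74). On deposited values 0 of 16 tested genes passed limma's adjusted threshold, 14 were lower at an unadjusted p under 0.05 (against 671 of all 7319 genes), and the median was -1.98. On scaled reads 23 were tested, with a median of -3.05 and 17 genes whose groups did not overlap, all of them lower in BrafYAP, against 17.1% of all genes tested. Without BrafYAP 6 the number was 22, against 24.5% of all genes.

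NF-κB subunits and feedback genes had a median difference of -0.03 over 9 genes tested on deposited values. Whether NF-κB acted on Cxcl10 was not tested. None passed limma's adjusted threshold, and 1 was higher and 0 lower at an unadjusted p under 0.05 (against 784 and 671 of all 7319 genes). Nfkb2 and Relb, partners in the alternative NF-κB pathway, differed by 1.19 (SE 0.63) and 0.78 (SE 0.24). The inhibitor genes Nfkbia and Nfkbie differed by 0.63 (SE 0.71) and -0.62 (SE 0.41). On scaled reads the median of the 11 genes was -0.11, with 1 lower and 2 higher without overlap, against 17.1% and 11.7% of all genes.

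**Figure D2:**
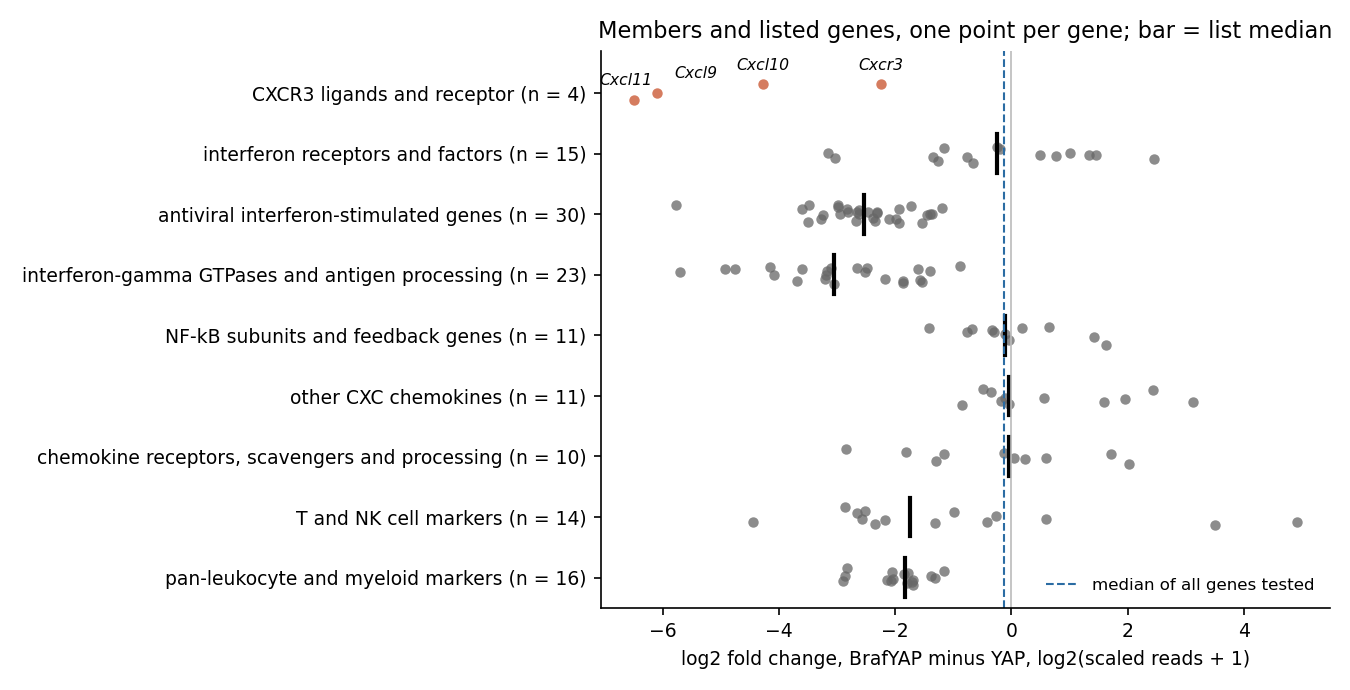
Log2 difference, BrafYAP minus YAP, in log2(scaled reads + 1), with 1 point per tested gene, for the 4 members (orange) and 8 lists (grey); black bars are list medians and the dashed line is the median of all genes tested (-0.12). The antiviral genes, the interferon-γ-inducible genes and the pan-leukocyte and myeloid markers lie below 0 throughout, with medians of -2.54, -3.05 and -1.83. The T and NK cell markers run from -4.44 to 4.91, with a median of -1.74. NF-κB genes, other CXC chemokines and chemokine receptors scatter about the line.

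Most of the other CXC chemokines are ligands of other receptors. Their median difference was -0.17 over 7 genes tested on deposited values and -0.04 over 11 on scaled reads, where 0 were lower and 3 higher without overlap, against 17.1% and 11.7% of all genes. Without BrafYAP 6, 7 of the 11 were higher without overlap, against 19% of all genes, and 0 were lower. None passed limma's adjusted threshold in either fit. At an unadjusted p under 0.05 there were 0 on deposited values and 3, all higher, on scaled reads (against 1629 higher of all 16832 genes). Cxcl2, a neutrophil attractant, had 5591, 2570 and 3267 reads against 3654, 3933 and 2024, and the groups overlapped. Cxcl16, the ligand of CXCR6, had 8349, 31424 and 17054 against 22352, 21486 and 7625 reads. Ppbp and Cxcl14 differed by -0.38 (SE 1.19) and 0.27 (SE 0.46), and the sign of both turned when single libraries were left out. Other chemokine receptors, scavengers and processing enzymes had a median of -0.79 over 5 tested on deposited values and of -0.04 over 10 on scaled reads. None passed limma's adjusted threshold in either fit. At an unadjusted p under 0.05, 1 was lower and 1 higher on deposited values, against 671 and 784 of all 7319 genes. On scaled reads 2 were lower and 1 higher, against 1775 and 1629 of all 16832. Without overlap 2 were lower and 0 higher, against 17.1% and 11.7% of all genes. Of the listed genes, Ackr3, a scavenger that also binds CXCL11, had 2343, 3980 and 2508 reads against 2355, 4498 and 338, a difference of -0.81 (SE 0.66). Cxcr4, the receptor of CXCL12, and the protease gene Mmp9 differed by -0.79 (SE 0.37) and 1.34 (SE 0.49).

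The immediate neighbours of the ligand genes were read for comparison with the cluster. Naaa and Sdad1, on the Cxcl9 side, differed by 0.01 (SE 0.45, limma adjusted p = 0.992) and -0.34 (SE 0.20, limma adjusted p = 0.396). Nup54 and Scarb2, on the Cxcl11 side, differed by -0.21 (SE 0.16, limma adjusted p = 0.494) and 0.81 (SE 0.34, limma adjusted p = 0.251). Fam47e, farther out, differed by -1.0 (SE 1.44) on scaled reads, and Gm43599 had 2 reads at most. Art3, an ADP-ribosyltransferase gene on the plus strand whose span holds both Cxcl10 and Cxcl11, had 40, 25 and 32 reads in the YAP libraries and 2, 0 and 0 in the BrafYAP libraries. Its groups did not overlap and its difference on scaled reads was -4.59 (SE 0.85, limma adjusted p = 0.0831). The strand used in counting is not stated in the sources used here, so Art3 reads cannot be told apart from reads of the ligand genes inside it.

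**Figure D3:**
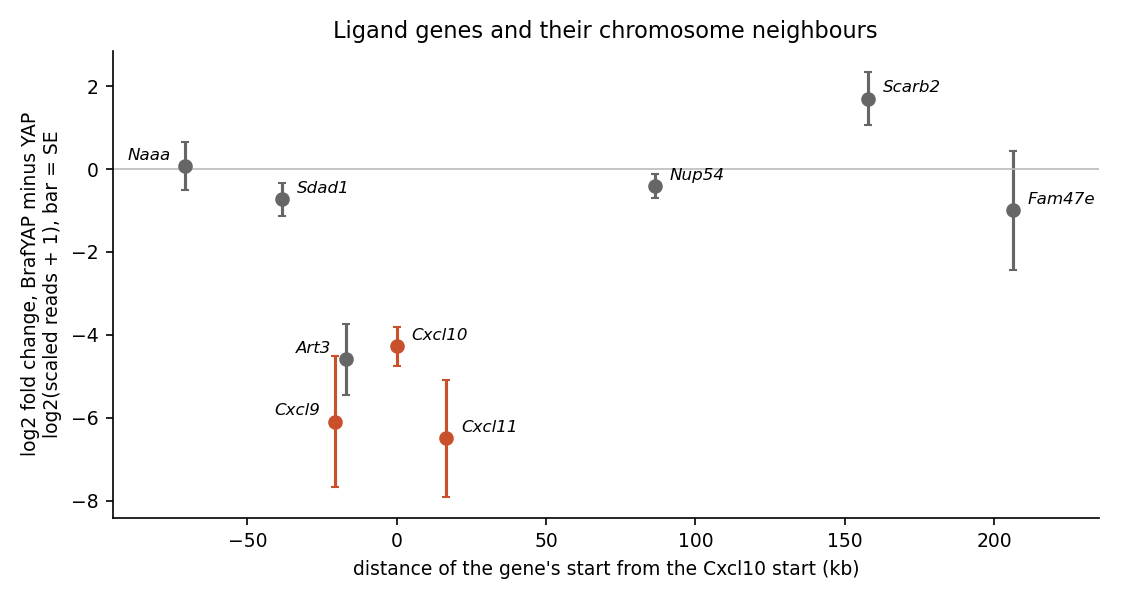
Log2 difference, BrafYAP minus YAP, in log2(scaled reads + 1) with its SE as the bar, against the distance of each gene's start from that of Cxcl10 in kb. The ligands (orange) and Art3, which overlaps Cxcl10 and Cxcl11, lie between -6.49 and -4.28, whereas the other 5 plotted neighbours (grey) lie between -1.0 and 1.70.

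The Kate sort should enrich thyroid-derived cells, yet leukocyte RNA was present in all libraries. The pan-leukocyte gene Ptprc (CD45) had 2472, 1983 and 1623 reads in the YAP libraries and 553, 521 and 983 in the BrafYAP libraries. The macrophage gene Adgre1 (F4/80) had 1966, 2825 and 475 against 441, 401 and 293 reads, and Csf1r, the receptor of macrophage colony-stimulating factor, 23830, 36548 and 11185 against 9157, 8257 and 3116. All 3 genes were higher in each YAP library than in any BrafYAP library. Over the list of 16 pan-leukocyte and myeloid markers, 0 of 13 tested on deposited values passed limma's adjusted threshold, 10 were lower at an unadjusted p under 0.05 (against 671 of all 7319 genes), and the median difference was -1.70. On scaled reads all 16 differences were below 0, with a median of -1.83, and 10 genes had groups that did not overlap, against 17.1% of all genes tested lower in this way. Without BrafYAP 6 the number was 11, against 24.5% of all genes. In bulk RNA, fewer cells of a type and less RNA per cell cannot be told apart.

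The summed myeloid markers were at 30886, 24108 and 9533 RPM in the YAP libraries and at 9218, 6643 and 2763 in the BrafYAP libraries. YAP 3 and BrafYAP 1 were therefore close in this sum, while their Cxcl10 reads were 5593 and 233. The largest part of the sum was the marker Lyz2, with 155280 reads in YAP 3 and 160046 in BrafYAP 1. These libraries were not alike in every marker. Ptprc had 1623 reads in YAP 3 and 553 in BrafYAP 1, C1qb 16728 and 7813, and Laptm5 10664 and 15442. Per 1000 myeloid marker reads, Cxcl10 had 13.4, 5.85 and 21.3 reads in the YAP libraries and 0.934, 1.45 and 7.15 in the BrafYAP libraries. Here BrafYAP 6 was above YAP 2, and the groups overlapped. The part of leukocyte RNA in the ligand difference was not tested.

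**Figure D4:**
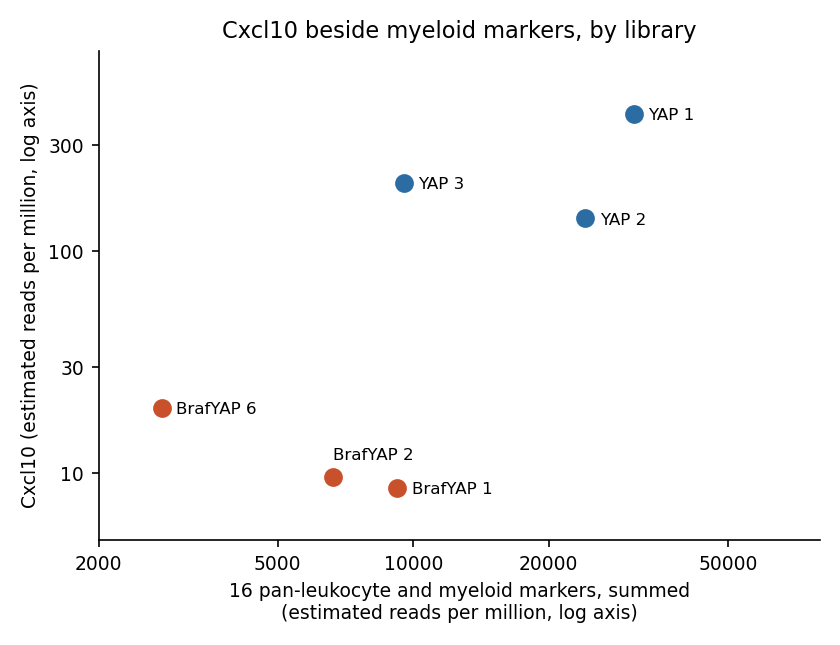
Cxcl10 against the sum of the 16 pan-leukocyte and myeloid markers, both in RPM on log axes, for the 3 YAP (blue) and 3 BrafYAP (orange) libraries. YAP 3 and BrafYAP 1 lie at nearly the same marker sum, 9533 and 9218, but at different Cxcl10 levels, 203 and 8.61. The largest part of this sum is Lyz2, and other markers differed between these libraries.

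RNA of the cells that CXCR3 marks was scarce. Cd3e, a subunit of the T-cell receptor complex, had 42, 25 and 15 reads in the YAP libraries and 1, 1 and 35 in the BrafYAP libraries, and Cd8a had 58, 42 and 0 against 0, 0 and 8. Trac, the constant region of the T-cell receptor alpha chain, had 44, 25 and 34 against 25, 5 and 175 reads. The groups of all 3 genes overlapped. The NK-cell receptor gene Ncr1 was at 0 in 5 libraries and had 1 read in YAP 2. Trbc2, a T-cell receptor beta constant region, rose from 98, 65 and 32 reads to 885, 2779 and 3990, by 4.12 (SE 0.49, limma adjusted p = 0.0468). Its adjusted p passed without YAP 2 or without BrafYAP 6 and was up to 0.217 without another library. Trbc1, given here after its values were seen, had 39, 13 and 12 against 91, 182 and 1020 reads and a difference of 2.07 (SE 0.66, limma adjusted p = 0.154), and its groups did not overlap either. Both genes share nearly identical sequence, so reads may be split between them, and of the T and NK cell list only these 2 genes reached the minimum for the test on deposited values. On scaled reads 14 of the 21 listed genes were tested, with a median difference of -1.74 and with 2 lower and 2 higher without overlap, against 17.1% and 11.7% of all genes. The 2 higher were Trbc1 and Trbc2, and the 2 lower were Cd8b1 and Il2rb, also given after their values were seen. Cd8b1 had 54, 20 and 18 against 0, 0 and 2 reads, and Il2rb 192, 125 and 142 against 26, 8 and 93. All 21 T and NK cell markers summed to 45.2, 29.3 and 20.01 RPM in the YAP libraries and to 45.5, 86.1 and 185 RPM in the BrafYAP libraries. The 19 markers other than Trbc1 and Trbc2 summed to 1103, 689 and 508 reads in the YAP libraries and to 255, 218 and 970 in the BrafYAP libraries, with 3 to 9 markers at 0. As for Cxcr3, BrafYAP 6 was the highest of its group.

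Markers of other possible sources of the ligands gave no call. On scaled reads 0 of all 16832 genes passed limma's adjusted threshold, so the lack of a call there cannot set these lists apart. Without overlap, 2 fibroblast markers were lower in BrafYAP and 2 higher. The thyroid follicular and the epithelial list each had 0 lower and 1 higher, and the endothelial list 0 and 0. Of all genes tested, 17.1% were lower and 11.7% higher in this way. On scaled reads the median differences were 0.44 over 7 endothelial, 0.13 over 8 fibroblast, -0.45 over 10 thyroid follicular and 0.71 over 7 epithelial markers. Without BrafYAP 6 the endothelial median was -0.92 and the follicular median -2.00, and without BrafYAP 1 the latter was 0.10. Only 2 of 6 B and plasma cell markers had enough reads to be tested, at 0.16 and 0.70. The fibroblast collagen gene Col1a1 had 3872, 5325 and 2937 against 1533, 3137 and 940 reads, a difference of -1.22 on deposited values (SE 0.39, limma adjusted p = 0.149). The fibroblast list did not move as a whole. Dcn and Lum, given here after their values were seen, were higher without overlap, by 1.94 and 2.48 on scaled reads. The 7 epithelial markers summed to 5492, 8917 and 17547 RPM in the YAP libraries and 19107, 12513 and 7527 in the BrafYAP libraries.

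The genes whose log2 values were most like the mean of the 3 ligands over the 6 libraries were As3mt (Pearson r = 0.994), Usp18 (0.994), Isg15 (0.993), Rsad2 (0.991), Igtp (0.991), Hmgb2 (0.989), Dtx3l (0.988) and Tmem173 (0.988). All are descriptions over 6 points that fall into 2 genotypes. The 8 genes all had groups that did not overlap, against 17.1% of all genes with BrafYAP lower on scaled reads. The ligand mean itself separates the genotypes, so this follows from how the genes were picked. Their differences and limma p-values restate the same contrast and are no further support. Usp18 removes ISG15 from proteins, Tmem173 encodes the DNA-sensing adaptor STING, Dtx3l is a ubiquitin ligase, As3mt methylates arsenic and Hmgb2 is a chromatin protein. The difference of As3mt was -0.61 (SE 0.16, limma adjusted p = 0.116) and that of Usp18 -1.15 (SE 0.17, limma adjusted p = 0.0511). On scaled reads, where the pseudocount weighs less, they were -1.28 and -2.65. Hmgb2, Dtx3l and Tmem173 differed by -0.98, -1.28 and -0.83.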

How the data were processed

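RNA was amplified with the SMART-Seq v4 kit (12 cycles), libraries were made with 8 PCR cycles, and paired 50-nt reads were sequenced. Per the labels and the study's methods, the authors used STAR 2.6.1d (mm10) for alignment and Partek's E/M model with Ensembl 95 for quantification, and deposited TPM plus 0.0001 in a table in which 0 columns lacked a sample. The columns sum to 181217.6 each. Low values multiplied by genomic span (GENCODE M21) fell within 0.05 of a whole number of reads for 71.7 to 76.1% of genes, against 22.4 to 25.1% with exonic length, so spans were used to estimate reads. These reads carry no molecular identifiers and, after E/M counting, need not be whole.

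Genotypes were compared by limma 3.58.1 (R 4.3.3; lmFit, eBayes with trend, two-sided). The response was log2(value + 1) where a gene's mean value reached 1, and log2(scaled reads + 1) where its mean reached 10 scaled reads. P-values were adjusted by the Benjamini-Hochberg method over all genes tested, with a threshold of 0.05. The labels give no batch. The scripts were tested on simulated data. Members and lists were chosen with earlier results of these data known. Named were the members, list genes past the threshold, the 4 largest differences in each pathway list, preset pathway and marker genes, the chromosome neighbours and the 8 genes with the most similar pattern. Some genes named by this rule are not reported here. Values are listed as YAP 1, 2 and 3, then BrafYAP 1, 2 and 6. Alternatives changed the pseudocount, filter, scaling, length, variance model, weights, block and libraries. Counts without BrafYAP 6 of genes whose groups do not overlap were added after seeing the data.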

Additional observations from a re-analysis of the deposited data

How the results depend on the processing

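The 18 genes past the threshold on deposited values became 1 with a pseudocount of 0.1, 0 with 0.0001, 3 with a minimum mean of 10, 0 with no filter, 0 on the estimated reads, 47 with exonic length, 47 after quantile normalization, 1 after median-ratio rescaling, 1 without the trend and 1393 with array weights. Without each library in turn the count ran from 0 to 475, the latter without YAP 2. It was 20 without BrafYAP 6 and 0 without any of the other 4. On the estimated reads the count of 0 became 45 with a pseudocount of 10, 62 after quantile normalization, 20 without the trend and 1886 with array weights, and ran from 0 to 45 as libraries were left out, the latter without BrafYAP 6. For these counts the cause was not tested. Median-ratio rescaling moved the median of all genes on scaled reads from -0.12 to 0.01.

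The replicate block, fitted on the numbers 1 and 2 that both groups share, gave 0 calls on deposited values. Same-numbered libraries had deviations with correlations of -0.048 and 0.062. With only the numbers 1 and 2 shared, these correlations cannot show whether the numbers pair the libraries. Under the block Cxcl9 was at -8.80, and the medians were -2.67 for interferon-γ-inducible genes, 0.30 for NF-κB genes and -0.49 for chemokine receptors.

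Cxcl10, Cxcl11 and Cxcl9 stayed below 0 under every alternative run, and groups that do not overlap make this no sign of stability. Cxcl10 stayed within -4.45 to -3.63, whereas Cxcl11 was -5.07 and -6.89 with pseudocounts of 0.1 and 0.0001 and -6.49 on the estimated reads. For the same pseudocounts the medians were -2.41 and -2.68 for antiviral genes, -2.67 and -2.79 for interferon-γ-inducible genes, and -1.10 and -1.15 for chemokine receptors. On the estimated reads these lists were at -2.54, -3.05 and -0.04. A minimum mean of 10 gave -1.13 for interferon receptors and factors and -2.90 for antiviral genes, and no filter gave 0.01 for chemokine receptors. Array weights gave 0.40 for NF-κB genes, -0.16 for chemokine receptors and -0.76 for myeloid markers. As libraries were left out, the medians ran from -0.16 to 0.37 for NF-κB genes, -0.94 to -0.43 for chemokine receptors and -0.01 to 1.27 for epithelial markers (lowest without YAP 1), and on scaled reads from -0.92 to 1.17 for endothelial and -2.00 to 0.10 for thyroid follicular markers. The endothelial median was -1.04 with the block.

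Some genes that did not pass the threshold turned sign. Ppbp was 0.22 with array weights and 1.46 with the block, Cxcl16 0.03 and 0.16, and Ifnar1 0.04 with the block. Pecam1 was 0.05 with a pseudocount of 10, 0.02 after quantile normalization and 0.04 after median-ratio rescaling, and Naaa -0.06 after quantile normalization. As libraries were left out, the ranges were -0.15 to 1.23 for Nfkbia, -1.09 to 1.00 for Ppbp, -0.87 to 0.20 for Cxcl16, -0.10 to 0.76 for Cxcl14, -0.52 to 0.11 for Ifnar1, -1.66 to 0.84 for Trac, -1.54 to 0.97 for Pecam1, -1.14 to 0.02 for Tg, -0.40 to 0.49 for Naaa and -2.61 to 0.02 for Fam47e. Read depth limits genes with libraries at 0, such as Cxcl9, Cxcr3, Ifng and Cd8a, since a count of 0 allows up to 3 reads.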
